A study of Hynobius leechii and Hynobius unisacculus and Hynobius quelpaertensis with 23 samples.

Results

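The genes described here encode the contractile proteins of muscle in salamanders of the genus Hynobius. They were found by gene symbol in 6 read-count tables: the myosin heavy and light chains, troponins, tropomyosins, alpha-actinins, calponins, myomesins, myosin-binding proteins C, leiomodins and myozenins, with the muscle actins ACTA1, ACTA2, ACTG2 and ACTC1 and with TCAP, DES, TTN, NEB and TAGLN. The rule matched 59 of the 13514 symbols in the tables. By their known use in vertebrates, 35 were set down as genes of striated muscle, 7 as genes of smooth muscle, 3 as shared between muscle types and 13 as members that also serve cells other than muscle, and MYL10 was put in no class. Each table is a separate transcriptome assembly with its own set of named rows, so 9 members had a row in every table and 14 had a row in 1 table only.

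The libraries were polyA RNA-seq of adult tissue from 15 wild-caught, untreated animals. The tables HC1, HC3 and LE hold lineages labelled Hynobius leechii, QU holds H. quelpaertensis, UN holds H. unisacculus and YA holds H. yangi. There were 15 liver libraries, 3 each in HC1, HC3 and LE and 2 each in QU, UN and YA. All tables but HC3 had 1 intestine library, and there was 1 skin library in each of HC1, HC3 and UN, and every intestine and skin came from an animal whose liver was also sequenced.

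Muscle shortens when myosin heavy chains, carrying light chains on their necks, pull on actin filaments. In striated muscle, the muscle of limbs, trunk and heart, the filaments are aligned in sarcomeres by titin, nebulin, alpha-actinin, myomesin and myosin-binding protein C, and troponin and tropomyosin gate them by calcium. Smooth muscle, which forms the wall of the gut and of blood vessels, has no troponin, uses the heavy chain MYH11, and is marked by calponin, transgelin and leiomodin. Liver lobules hold little muscle, the intestine has muscle coats, and amphibian skin lies over the skeletal muscle of the body wall.

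Total counts were 8672566 to 19281948 in the livers, 1703075 to 3390245 in the intestines and 2552636 to 4628175 in the skins. A level is given as counts per 1000000 counts of the library's own table (CPM). Rows carry the symbols as deposited, and close relatives such as the heavy chains or actins may share reads. With no row lengths in the tables, levels are compared mainly between libraries. Where rows are summed, ranked or set against one another within a table, the unknown row lengths may play a part. The 6 livers of the animals with more than 1 tissue differed from the other 17 libraries in how their counts were made up: 43.0% to 51.4% of their low counts were odd numbers, against 11.3% to 22.5%. These 6 livers also had 24.3% to 40.8% of all rows, and 27.8% to 68.9% of the members' rows, at a count of 0, where the other libraries had 0% to 22.2% of the members' rows at 0. The main results are therefore also given without them. The tissue labels were checked on marker genes: 4 of 5 tested enterocyte and goblet cell genes were higher in intestine than in liver, 7 of 8 tested keratinocyte genes were higher in skin, and 2 and 3 of 5 hepatocyte genes were lower in intestine and in skin, with edgeR's adjusted p under 0.05. Some markers crossed tissues: MUC2 and FCGBP, 2 of 4 tested enterocyte and goblet cell genes, were also called higher in skin. The keratinocyte gene DSP, 1 of 3 tested, was called higher in intestine. The HC3 skin had 14734 CPM of enterocyte and goblet cell genes, where the intestines had 5946 to 20812 CPM. It also had 14952 CPM of hepatocyte genes, of which FGB had 14685 CPM. Livers reached 10166 CPM of enterocyte and goblet cell genes in HC3, 9175 CPM in UN and 7309 CPM in LE. The HC1, QU and YA livers had 2.05 to 105 CPM. The enterocyte gene APOA4 averaged 6624 and 6550 CPM in the LE and UN livers, against 27.9 and 5.68 CPM in their intestines. The hepatocyte gene HPX was 11.7-fold above the mean of the livers in the HC1 intestine, but below that mean in LE, QU and YA.

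The summed rows of striated muscle stood above liver in the skins, and those of smooth muscle stood above liver in every intestine. The striated rows summed to 11061 CPM in the HC1 skin, 17186 CPM in the HC3 skin and 11653 CPM in the UN skin. The livers of those tables had 1464 to 2016 CPM in HC1, 52.9 to 122 CPM in HC3 and 1778 to 3657 CPM in UN. In HC1 and UN nearly all of the liver sum was the ACTA1 row, which is taken up at the end. The same row gave 4427 CPM of the HC1 skin's sum and 6353 CPM of the UN skin's sum. The smooth muscle rows, 3 to 6 of the 7 genes in a table, summed to 1682, 3638, 4461, 2786 and 5242 CPM in the intestines of HC1, LE, QU, UN and YA. Their highest livers had 69.3, 659, 159, 645 and 1828 CPM in the same order. In YA, 1796 CPM of this liver sum and 3080 CPM of the intestine's sum were the ACTG2 row. The MYL9 row gave 537 CPM of the liver sum in LE and 554 CPM in UN, and 748 and 648 CPM in their intestines. No liver reached the intestine or skin of its own table in the smooth sum, and no liver reached the skin of its own table in the striated sum. In tissue libraries such as these, more cells of a type and more RNA per cell cannot be told apart.

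**Figure D1:**
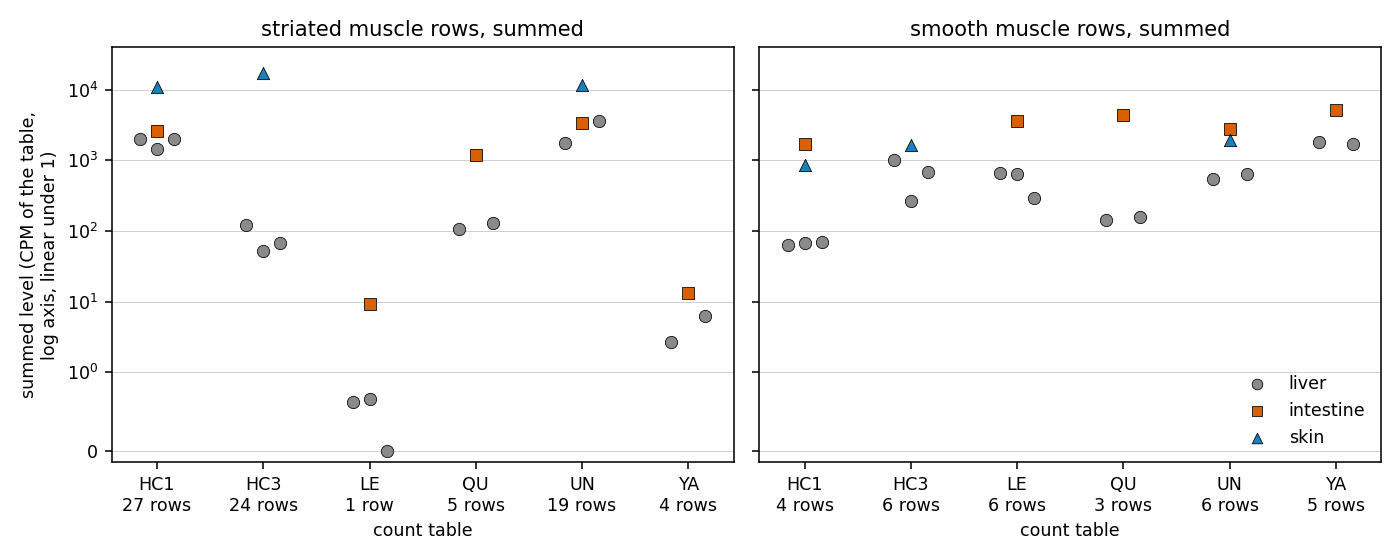
Summed level of the striated (left) and smooth muscle rows (right) in each library, in CPM of the library's table on a log axis that is linear under 1; grey circles are livers, orange squares intestines and blue triangles skins, and the number of rows summed stands under each table's name. The 3 skins lie between 11061 and 17186 CPM for striated rows, and each intestine lies above its table's livers for smooth rows.

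Smooth muscle myosin MYH11 and calponin CNN1 were above every liver of their table in all 5 intestines, as were DES, TTN, ACTN1 and MYH14, and had the lowest adjusted p among the members. The share of all genes above every liver of their table is not given here. Of all genes tested in intestine against liver, 72.2% had a positive log2 fold change. MYH11, the heavy chain of smooth muscle, had 1246 CPM in the HC1 intestine, 1625 in LE, 2517 in QU, 1420 in UN and 2065 in YA. The livers of these tables had 8.35 to 48.3 CPM. Within tables the intestine was 37-fold (HC1), 55-fold (LE), 68.8-fold (QU), 130-fold (UN) and 121-fold (YA) above the mean of its livers. CNN1, which binds actin and damps myosin in smooth muscle, had 314, 397, 631, 349 and 89.7 CPM in the intestines of HC1, LE, QU, UN and YA. Its livers in those tables had 0.331 to 20.3 CPM. The intestine was 19.8-fold to 39-fold above the livers of its table.

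The 5 intestines were tested against the 12 livers of their tables with edgeR's quasi-likelihood test, with the table as a term, over the 2813 genes tested among those named in all 5 tables. Higher calls, at an adjusted p under 0.05, made up 3.87% of these genes (109) and lower calls 1.03% (29); 9 members could be tested, of which 3 were called higher and none lower. MYH11 was higher by 5.67 on the log2 scale (SE 0.65, adjusted p = 0.000137) and CNN1 by 4.36 (SE 0.65, adjusted p = 0.00142). The third call was MYH14, a non-muscle myosin heavy chain of epithelia, higher by 3.61 (SE 0.88, adjusted p = 0.031). The 9 members had a median log2 fold change of 2.16, and all 2813 genes had a median of 0.85. Relative to that median, the differences were 4.82 for MYH11, 3.51 for CNN1 and 2.76 for MYH14. Library sizes taken from the whole tables moved the median of all genes to 1.43 and the split of calls to 504 higher and 36 lower, and left the relative differences at 4.81, 3.55 and 2.59.

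When the fit took the animal as a block, which the labels allow because each intestine shares an animal with a liver, edgeR called no gene, and the adjusted p was 0.117 for MYH11, 0.124 for CNN1 and 0.16 for MYH14. Their log2 fold changes in that fit were 6.69, 5.89 and 4.54. Each liver in these pairs was of the odd-count kind. Without the odd-count livers, with 7 livers left, MYH11 (5.09, adjusted p = 0.00125), CNN1 (3.78, adjusted p = 0.000757) and MYH14 (3.03, adjusted p = 0.0369) were called by edgeR. With a term for those livers instead, MYH11 and CNN1 were called and MYH14 was not (2.86, adjusted p = 0.134). MYH14 was lost when any of the intestines of HC1, LE, QU or UN, or any of 4 livers, was left out.

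Other smooth muscle genes had rows in fewer tables. Transgelin (TAGLN), an actin-binding protein of differentiated smooth muscle, had 118 CPM in the HC1 intestine, 376 in LE, 1313 in QU and 366 in UN. The highest liver of each table had 19.4, 61.8, 104 and 69.2 CPM, and the intestine was 6.11-fold to 13.5-fold above the mean of the livers. Markers of connective tissue and mural cells, of which vessel smooth muscle is one, moved with these genes in 4 of 5 tables, with 3 to 7 of 9 genes in a table. They summed to 126 CPM in the LE intestine against 28.7 to 49 CPM in the livers, to 162 in QU against 45.7 and 76.7, to 875 in UN against 116 and 102, and to 529 in YA against 137 and 105. In HC1 the intestine, at 419 CPM, was below the livers at 1077 to 1261 CPM. Most of that liver sum was RGS5, with a mean of 1092 CPM against 298 CPM in the intestine. COL1A2, COL3A1, DCN and NOTCH3 were 12.3-fold, 1.62-fold, 4.92-fold and 1.4-fold the mean of the livers in the HC1 intestine. Neither of the 2 markers tested was called, and the part of these markers in the smooth muscle genes was not tested. The YA table had no TAGLN row, so the gene was outside the test over 5 tables. In a fit of the HC1, LE, QU and UN tables alone, chosen after the data were seen, TAGLN was higher in intestine by 2.34 (SE 0.42, edgeR's adjusted p = 0.00899).

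Leiomodin LMOD1, which starts actin filaments in smooth muscle, was low but above liver in each intestine that had a row. It had 16.3 CPM in the LE intestine against 0.208 to 0.441 CPM in the livers, and 5.6 CPM in the YA intestine against 0.0662 and 0.555. The gene reached 3.34 CPM in the UN intestine, where both livers had no count, which puts the intestine at least 19-fold higher against a floor of 3 counts per library. Enteric gamma-actin ACTG2, the actin of gut smooth muscle, had 476 CPM in the LE intestine and 8.12 to 45 CPM in the LE livers, a 17.4-fold difference. In YA the ACTG2 row was at 3080 CPM in the intestine and also at 1796 and 1707 CPM in the livers, a 1.76-fold difference.

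The light chain MYL9 of smooth muscle and non-muscle myosin was near its liver level where it was abundant. It had 748 CPM in the LE intestine against 234 to 537 CPM in the livers, and 648 CPM in the UN intestine against 467 and 554. In HC1, where the livers had 0 to 0.386 CPM, it had 3.61 CPM in the intestine and 3.02 CPM in the skin. In YA it had 1.18 CPM in the intestine, which is 4 counts, and 9.8 and 0 CPM in the livers. The intestines of LE and UN were 1.79-fold and 1.27-fold above their livers, close to the median over all rows of 1.57-fold and 1.38-fold.

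**Figure D2:**
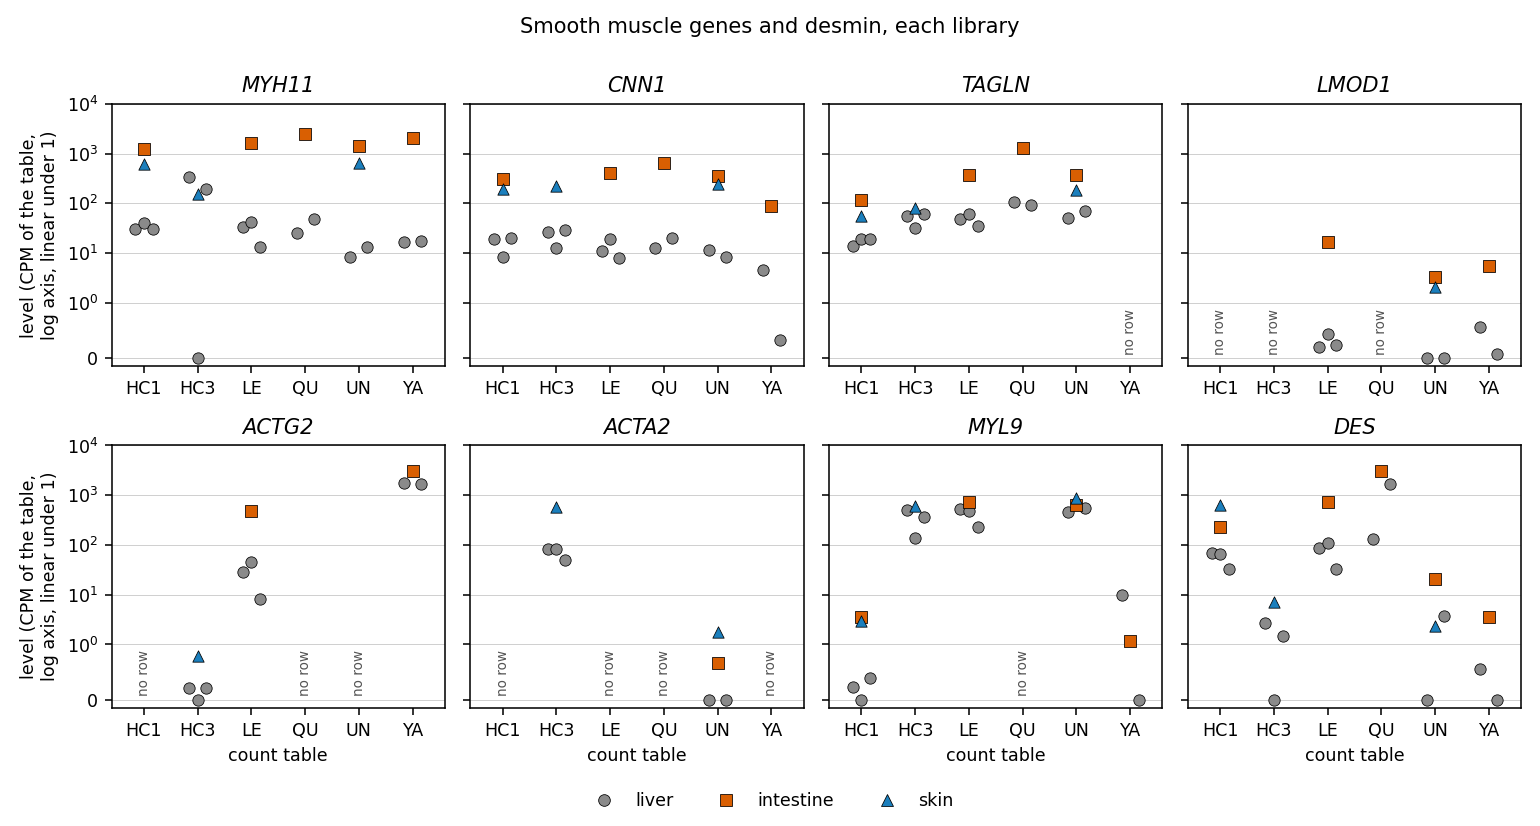
Level of smooth muscle genes and of desmin in every library, in CPM of the library's table on a log axis that is linear under 1, with 1 panel per gene; grey circles are livers, orange squares intestines and blue triangles skins, and "no row" marks a table without that symbol. Every intestine stands apart from its livers for MYH11 and CNN1, while the HC3 skin lies among its livers for MYH11.

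Desmin and titin, which muscle types share or which belong to sarcomeres, were also higher in the intestines by level. DES, the intermediate filament of muscle cells, was at 227 CPM in the intestine of HC1, 743 in LE, 3136 in QU, 20.7 in UN and 3.54 in YA. The intestine was above every liver of its table in all 5 tables, by 3.53-fold to 12.8-fold over the mean, but the livers ranged from 0 to 1647 CPM. The highest liver value was 1 QU liver at 1647 CPM, where the other QU liver had 132 CPM. The test gave 2.16 on the log2 scale (SE 1.04, adjusted p = 0.245). TTN, the giant spring protein of the sarcomere, had 86.6, 9.15, 317, 50.1 and 3.54 CPM in the intestines of HC1, LE, QU, UN and YA, each above all livers of its table. The first 4 were 4.1-fold to 23.9-fold above the mean of their livers. Its log2 fold change was 2.95 (SE 1.30, adjusted p = 0.205). In these tables, 4 of the 5 odd-count livers had no TTN count, and without the odd-count livers TTN was called (2.04, SE 0.43, edgeR's adjusted p = 0.0172).

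In skin, calponin was again high, and transgelin was above liver by smaller folds and was not called. CNN1 had 194 CPM in the HC1 skin, 220 in HC3 and 244 in UN, against 8.2 to 20.3, 12.4 to 28.4 and 8.37 to 11.3 CPM in the livers of those tables. TAGLN had 54.9, 80.7 and 187 CPM in the same skins, which is 3.18-fold, 1.62-fold and 3.13-fold the mean of the livers. The median over all rows of the HC3 skin was 2.72-fold. edgeR's test of skin against liver put TAGLN at 0.43 on the log2 scale (SE 0.58, adjusted p = 0.723). The median of all genes in that test was 0.74. MYH11 reached 611 CPM in the skin of HC1 and 651 CPM in that of UN, 18.1-fold and 59.8-fold above liver. In HC3 the MYH11 row had 157 CPM in the skin, and the livers had 338, 0 and 197 CPM, so the skin lay inside the range of its livers. MYH11 was not called in edgeR's test of skin against liver (3.31, SE 1.82, adjusted p = 0.342). ACTA2, the actin of vascular smooth muscle, had 584 CPM in the HC3 skin against 49.7 to 83.1 CPM, an 8.12-fold difference. DES had 627 CPM in the HC1 skin, 11.1-fold above the livers, but 7.05 and 2.32 CPM in HC3 and UN. Connective tissue and mural markers summed to 753 CPM in the HC3 skin against 25.7 to 83 CPM in the livers, and to 1457 CPM in the UN skin against 116 and 102 CPM. In HC1 the skin had 949 CPM and the livers 1077 to 1261 CPM. Of these markers 0 of 3 tested were called, and their part was not tested.

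The skins held high levels of several genes of striated muscle that were low in liver. MYH8, known in mammals as the perinatal skeletal myosin heavy chain, had 484 CPM in the HC1 skin, 3678 in HC3 and 3492 in UN. No liver of these tables was above 4.75 CPM. Over the mean of the livers, the HC3 and UN skins were 3933-fold and 1406-fold higher. TCAP, which caps titin at the Z disc, had 132 CPM in the HC3 skin and 120 CPM in the UN skin, where the livers had 0 to 0.413 CPM. In the HC1 skin TCAP had 1.3 CPM, which is 6 counts, and no count in any HC1 liver. ACTN2, the sarcomeric alpha-actinin of the Z disc, had 3.89, 1215 and 379 CPM in the skins of HC1, HC3 and UN against at most 0.515, 6.2 and 2.44 CPM in their livers.

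The 3 skins were tested against the 8 livers of their tables in the same way, over 4628 genes. Higher calls made up 4.02% of these (186) and lower calls 1.38% (64); of 27 members tested, 4 were called higher and none lower. The called members were MYH8 (log2 fold change 10.24, SE 1.20, adjusted p = 0.0023), TCAP (8.09, SE 1.13, adjusted p = 0.00576), ACTN2 (5.91, SE 1.17, adjusted p = 0.0209) and CNN1 (2.93, SE 0.60, adjusted p = 0.0235). The median over the 27 members was 3.30 and 26 of them were positive, while over all genes the median was 0.74 and 66.7% were positive. Relative to that median the 4 genes stood at 9.50, 7.35, 5.17 and 2.19. By class, 3 of 16 tested striated genes, 1 of 4 smooth genes and 0 of 6 non-muscle members passed the test. Whole-table library sizes moved the median of all genes to 1.73 and the calls to 739 higher and 51 lower.

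In the fit with an animal block no gene passed, and edgeR's adjusted p was 0.256 for each of the 4 members. MYH8 was the only member called without the HC3 skin, MYH8 and ACTN2 were called without the HC1 skin, and MYH8 and TCAP without the UN skin. Without the odd-count livers all 4 were called by edgeR, at 9.61 for MYH8, 7.38 for TCAP, 5.28 for ACTN2 and 2.55 for CNN1, whereas a term for those livers left MYH8 and TCAP. CNN1 was also lost without 1 HC3 liver (adjusted p = 0.0546) or 1 UN liver (0.052), and ACTN2 without the same HC3 liver (0.0572).

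Beside MYH8, the myosin heavy chain rows that were high in skin differed between tables. In HC1 the skin reached 3782 CPM for MYH1, a heavy chain of fast fibres in mammals, and 1430 CPM of MYH3, the embryonic heavy chain of mammals. The HC1 livers had at most 3.11 CPM of MYH1 and 16.5 CPM of MYH3. In HC3 the skin had 4894 CPM of MYH2, another fast heavy chain, against at most 5.78 CPM in liver, and only 1.57 CPM of MYH1. In UN the skin had 2.32 CPM of each of MYH1 and MYH2 and no count of MYH3, and MYH8 made up nearly the whole signal. The heavy chains are close copies of one another and each assembly named its rows alone, so reads may be split between rows differently in each table. Summed over the striated heavy chains, the skins had 5702 CPM (7 rows, HC1), 8597 CPM (5 rows, HC3) and 3502 CPM (6 rows, UN), and the livers had 0.22 to 33.6 CPM. The skins were 293-fold, 1653-fold and 464-fold above the mean of their livers in this sum.

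**Figure D3:**
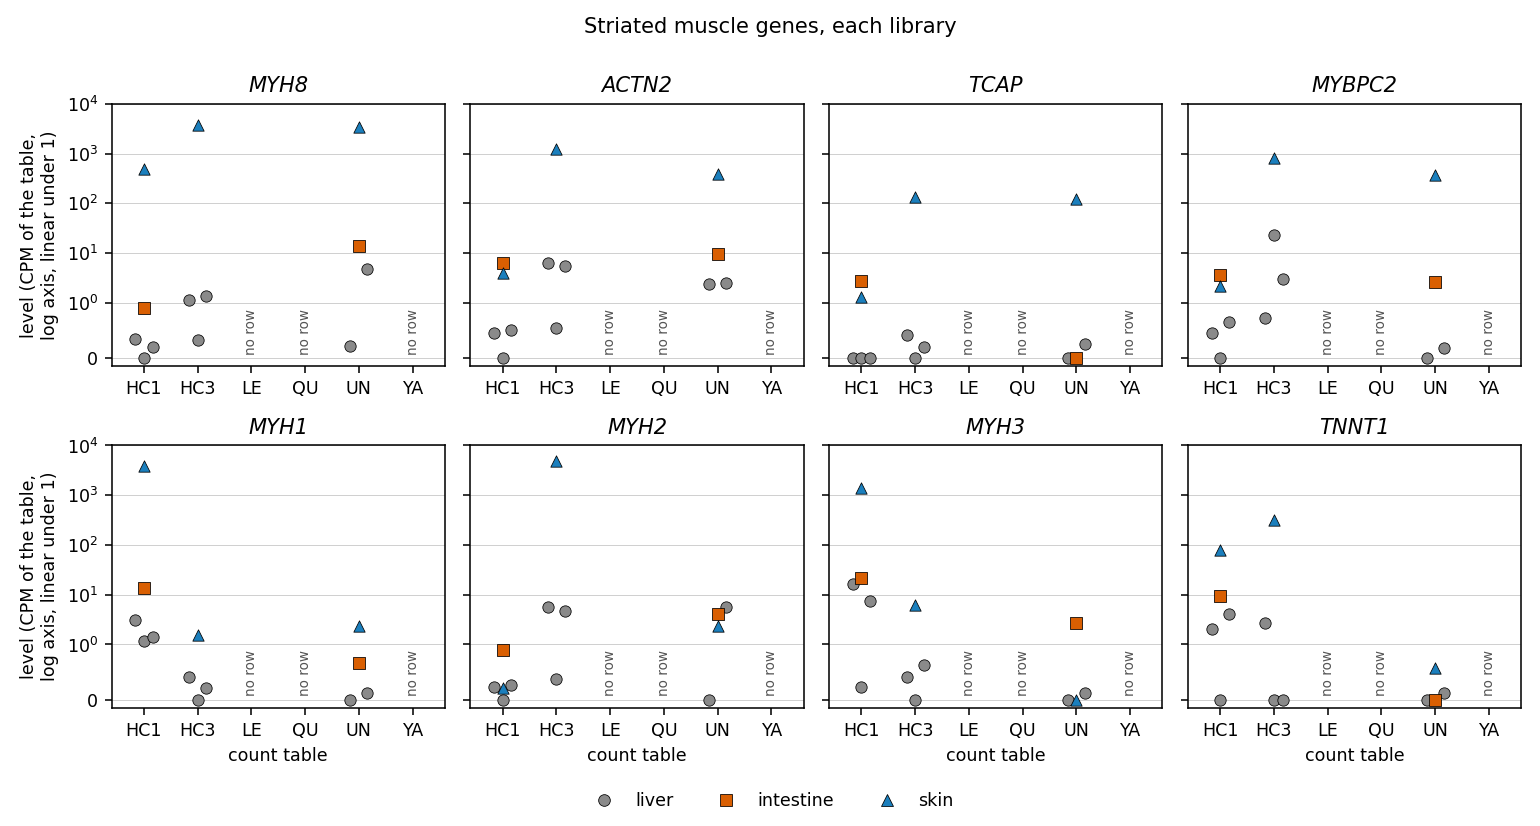
Level of striated muscle genes in every library, in CPM of the library's table on a log axis that is linear under 1, with 1 panel per gene; grey circles are livers, orange squares intestines and blue triangles skins, and "no row" marks a table without that symbol. MYH8 is high in all 3 skins, whereas MYH1 and MYH3 are high in the HC1 skin, MYH2 in the HC3 skin, and TCAP and MYBPC2 in the HC3 and UN skins.

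Light chains and thick filament proteins of striated muscle were also above liver in the skins. MYL1, the essential light chain of fast fibres, had a row only in HC1, with 663 CPM in the skin and 0.892 to 1.67 CPM in the livers, a 570-fold difference. MYL2, the regulatory light chain of slow and heart muscle, had a row only in HC3, with 358 CPM in the skin and 0.83 to 3.2 CPM in the livers. MYL4, an embryonic and atrial light chain in mammals, was at 11 CPM in the skin of HC1 and 23.8 CPM in that of UN against at most 2.25 and 1.32 CPM. MYBPC2, the fast form of myosin-binding protein C, had 802 CPM in the HC3 skin and 376 CPM in the UN skin but 2.16 CPM in HC1, where the livers had 0 to 0.644 CPM. An HC3 liver had 23.4 CPM of MYBPC2. MYBPC1, the slow form, had 2.16 to 3.92 CPM in the skins and 0 to 0.415 CPM in the livers; it was not called (4.39, SE 1.56, adjusted p = 0.143) except with whole-table library sizes (adjusted p = 0.0338, edgeR).

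Among Z disc and thin filament genes, levels in skin varied between tables. Myozenin MYOZ1, which ties alpha-actinin to calcineurin at the Z disc, had 76.3, 22.7 and 11 CPM in the skins of HC1, HC3 and UN, above every liver of each table. Nebulin (NEB), the ruler of the thin filament, had 774 CPM in the UN skin against 0 and 3.37 CPM, and 5.83 and 6.27 CPM in the HC1 and HC3 skins. TNNT1, the slow troponin T, stood at 79.7 CPM in the skin of HC1 and 318 CPM in that of HC3 against at most 4.19 and 2.68 CPM in liver, but 0.58 CPM in the UN skin. TNNC1, the calcium sensor of slow and heart muscle, had 70.8 CPM in the UN skin against 0.769 and 10.1 CPM. It had 0 CPM in the HC1 skin against 0 to 1.15 CPM, and 1.57 CPM in the HC3 skin against 0 to 0.207 CPM. TNNC1 was not called in the edgeR fit (1.90, SE 1.72, adjusted p = 0.582). TNNC2, the calcium sensor of fast fibres, had a row in HC3 only, with 127 CPM in the skin and 35.7, 2.57 and 7.26 CPM in the livers. TNNT3, the fast troponin T, had 5.62 CPM in the HC1 skin against 36, 0 and 9.14 CPM in the livers, and its fit gave -1.26 (SE 2.21, adjusted p = 0.793). It was the only tested member with a negative value in that fit. TTN had 52.3, 68.2 and 35.4 CPM in the skins, 2.47-fold to 7.66-fold above liver, and at 1.29 on the log2 scale in the fit (SE 1.81, adjusted p = 0.737).

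In the intestines the summed striated heavy chains were lower than in the skins. The striated heavy chains summed to 41.1, 57, 23.4 and 9.73 CPM in the intestines of HC1, QU, UN and YA, and LE had no such row. In QU all of it was the MYH6 row, the alpha heavy chain of heart in mammals, with 57 CPM in the intestine and 0.207 and 2 CPM in the livers. The same library had 784 CPM of cardiac actin ACTC1 against 10.1 and 67.3 CPM in the livers. Of 8 heart muscle marker genes, the QU table had 2: MYH6 itself and NPPB, which had 0 CPM in the intestine. MYOZ1 was above every liver in both intestines with a row, at 7.22 CPM in HC1 and 10.7 CPM in UN. MYOM1, a protein of the sarcomere's M band, reached 14.4 CPM in the intestine of HC1 with at most 0.258 CPM in the livers, and 14.1 CPM in QU against 10.9 and 8.07 CPM. In the skins MYOM1 had 3.02 CPM in HC1 and 56.8 CPM in HC3, against at most 0.258 and 0.826 CPM in the livers. MYL3, the essential light chain of slow and ventricular muscle, went the other way in QU, with 3.52 CPM in the intestine and 77.7 and 33.2 CPM in the livers.

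Members that also work outside muscle were less uniform. MYH14 had 134 CPM in the QU intestine, 154 in UN and 100 in YA, but 1.81 and 4.07 CPM in HC1 and LE. In skin it had 0.432 CPM in HC1, 19.2 in HC3 and 272 in UN, and the fit put it at 4.09 (log2, SE 1.04, adjusted p = 0.0503). ACTN1, a crosslinker of stress fibres, had 13.5, 18.3, 1996, 1025 and 1105 CPM in the intestines of HC1, LE, QU, UN and YA, each above all livers of its table by 2.09-fold to 7.7-fold over the mean. The test did not call it (1.70, SE 1.03, adjusted p = 0.353). ACTN4 was past 4-fold over the mean of the livers in all 3 skins, at 6.27, 4069 and 9 CPM in HC1, HC3 and UN. The livers had 1.84, 0 and 1.87 CPM in HC1, 76 to 201 CPM in HC3, and 0 and 2.44 CPM in UN. Both livers at 0 were of the odd-count kind. ACTN4 was called in neither edgeR fit with liver (adjusted p 0.333 in skin and 0.575 in intestine). MYH9, the main non-muscle heavy chain, had log2 fold changes of 0.47 in intestine (SE 1.16, adjusted p = 0.835) and 0.45 in skin (SE 1.36, adjusted p = 0.889). By level it was past 4-fold over liver in 2 of 3 skins, with 8.64, 1089 and 1433 CPM in HC1, HC3 and UN. Its folds ran from 0.182 to 12.5 in the intestines and from 0.435 to 5.1 in the skins. MYH10 had 1707 CPM in the HC3 skin against 8.34 to 33.1 CPM in the livers, but 2.16 and 1.74 CPM in the HC1 and UN skins. It was not called in skin (3.16, SE 1.61, adjusted p = 0.305). Summed, MYH9, MYH10 and MYH14 were 0.5-fold, 11.9-fold and 4.73-fold the mean of the livers in the HC1, HC3 and UN skins. In the intestines of HC1, LE, QU, UN and YA their sum was 0.442-fold, 1.64-fold, 17.3-fold, 1.74-fold and 3.32-fold. The light chain MYL12A had 1263 CPM in the HC1 intestine and 1615 in the HC1 skin, near the 1022 to 1501 CPM of the livers. MYL6B, present in HC3 only, had 183 CPM in the skin and 113 to 193 CPM in the livers.

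MYL6, a light chain of smooth and non-muscle myosin, had 667 CPM in the LE intestine against 365 to 489 CPM, and 1246 CPM in QU against 367 and 1342. MYL12B, a regulatory light chain, had 979 CPM in the QU intestine and 390 CPM in YA, near their livers at 910 to 1138 and 299 to 302 CPM. CNN2 had 108 CPM in the HC1 skin against 6.12 to 30.4 CPM, and CNN3 246 CPM in the UN skin against 8.49 and 28 CPM; both are calponins of many cell types. MYL10 had 32.9 CPM in the HC1 intestine against 0.773 to 7.28 CPM.

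Tropomyosins, which lie along actin in all cell types, differed by small factors where they were abundant. TPM2 was at 363 CPM in the intestine and 475 CPM in the skin of HC1 against 184 to 237 CPM in the livers. TPM1 had 376 CPM in the LE intestine against 183 to 210 CPM. The other rows of both genes were at 11.8 CPM or less in every library. TPM3 had 137 CPM in the LE intestine and 97.3 to 188 CPM in its livers. Summed over all tropomyosin rows, HC1 intestine and skin were 1.73-fold and 2.24-fold above liver and the LE intestine 1.59-fold.

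Counted library by library, members past 4-fold over the mean of their table's livers were set beside the share of all rows that were. A row entered if any library compared had at least 10 counts, so the counts below are not of all members. Livers had larger totals, so a row that entered only through its intestine or skin was likely to be past 4-fold higher. LMOD1 and MYBPC1 entered this way in the UN intestine, with 10 counts each where both livers had 0. The same filter shaped the share of all rows. In the HC1 intestine 15 of 32 members were higher, where 26.2% of all rows were, and 2 were lower (MYH4 and MYH9; 6.59% of rows). In the LE intestine 10 of 18 were higher (24.6% of rows) and 0 lower (6.03%). In the QU intestine 12 of 18 were higher (34% of rows) and 1, MYL3, was lower (3.99%). In the UN intestine 14 of 23 were higher (23.2% of rows) and 0 lower (8.26%). In the YA intestine 10 of 18 were higher (26.5% of rows) and 1, MYL9, was lower (7.43%).

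In the HC1 skin 21 of 39 members were higher (24.7% of rows) and 1, MYH4, was lower (7.05%). In the HC3 skin 27 of 34 were higher (39.6% of rows) and 0 lower (6.09%). In the UN skin 17 of 24 were higher (36.1% of rows) and 0 lower (5.77%). Over the 8 libraries this made 126 higher and 5 lower, where 16142 and 3566 of all rows were. Against the even-count livers alone it was 112 and 6, and 15531 and 3914 of all rows. By class, the smooth rows had median folds of 18.1 to 39 in the intestines, and the striated rows had 10.4, 76 and 17.3 in the skins of HC1, HC3 and UN. The striated rows had medians of 3.01, 21.3, 20.2, 3.97 and 10.3 in the intestines of HC1, LE, QU, UN and YA, where LE had 1 such row tested, and the smooth rows had 12.5, 1.84 and 14 in the skins. The median over all rows was 1.38-fold to 2.72-fold in these libraries. The non-muscle members had medians of 1.93, 1.63, 7.7, 4.94 and 2.39 in the intestines and 1.57, 18.8 and 8.57 in the skins, in the same orders. Past 4-fold were 5 of 5 of them in the UN skin, 6 of 7 in the HC3 skin and 6 of 9 in the QU intestine. It was 3 of 5 in the UN intestine, 3 of 8 in the YA intestine, and 2 of 8 in the HC1 skin and the HC1 and LE intestines. There is 1 intestine or skin per table, so these folds have no replicate check.

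**Figure D4:**
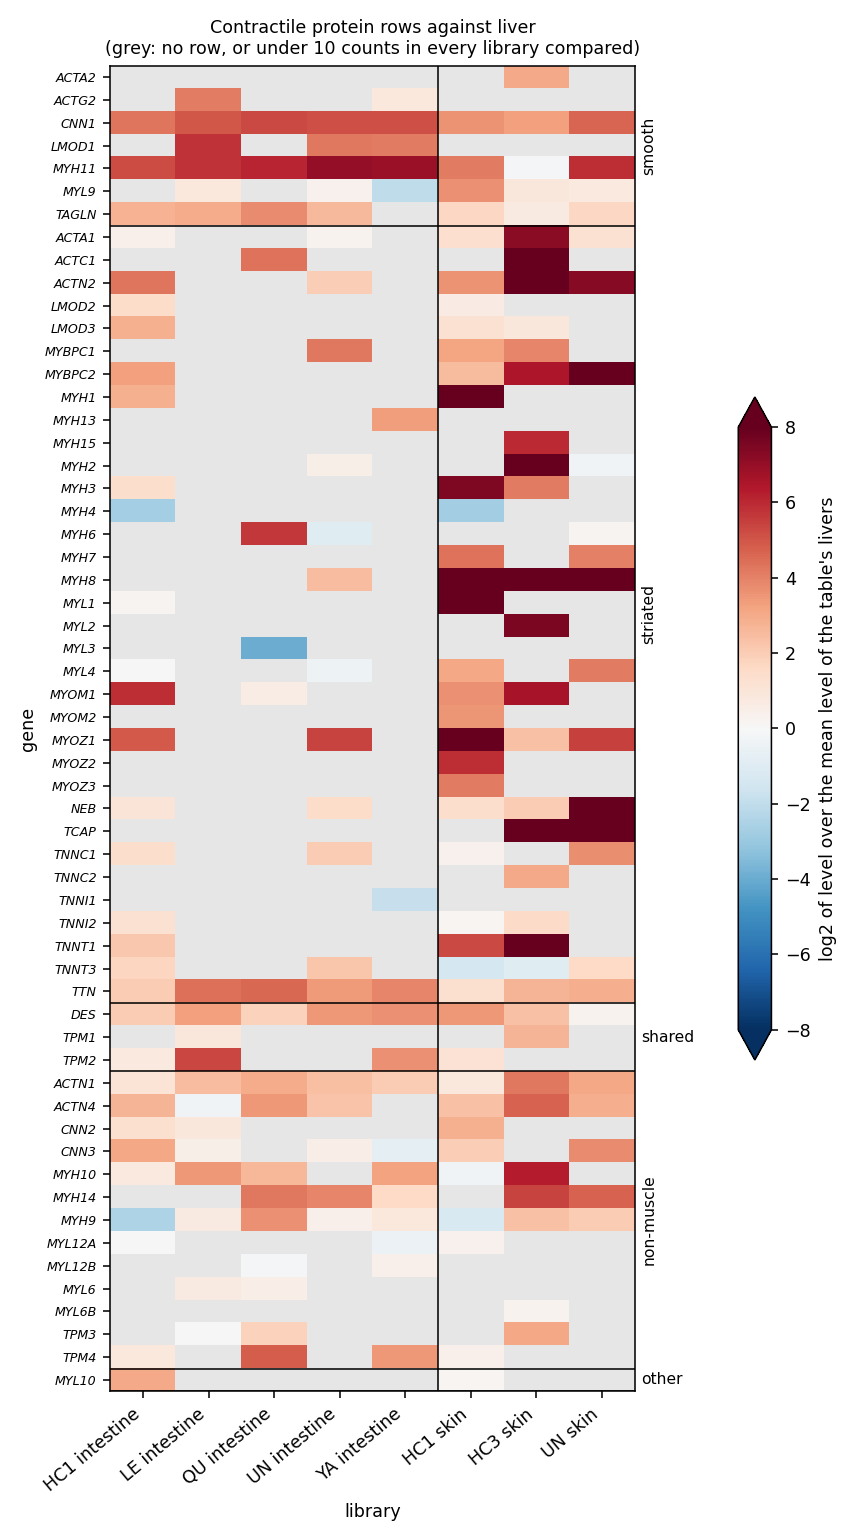
Log2 of the level in each intestine and skin over the mean level of the livers of its table, for every contractile protein row with at least 10 counts in a library compared; red is higher and blue lower than liver, grey has no value, and black lines part the classes and the tissues. MYH11 and CNN1 are red across all 5 intestines, and dark red cells among striated rows lie in the skins, among them MYH8 in all 3 and, in single tables, MYH1, MYL1, MYH2, ACTC1 and NEB.

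Intestine and skin could be compared directly in HC1 and UN, where both came from the same animal. Over 6595 genes tested, 0 were called in either direction (0% higher and 0% lower, edgeR), and 137 had an unadjusted p under 0.05; of 32 members tested, 0 were called and 3 had such a p. These 3 were MYH8 (-8.02, intestine minus skin on the log2 scale, SE 2.18), MYH1 (-6.02, SE 2.32) and MYL4 (-4.41, SE 1.37), each with an adjusted p of 1. In levels, MYH8 had 0.903 and 14 CPM in the intestines of HC1 and UN against 484 and 3492 CPM in the skins. MYH11 had 1246 and 1420 CPM in the intestines against 611 and 651 CPM in the skins, with a log2 difference of 1.61 (SE 0.93, adjusted p = 1). DESeq2 called 59 genes in the same comparison, among them MYH8 and MYH1, both lower in intestine.

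The livers themselves differed between tables in the level of many rows. Over all 6 tables, 65.4% of 2251 genes differed between the livers of the lineages in edgeR, and 5 of the 9 members tested did: ACTN1, ACTN4, DES, MYH10 and MYH14. The mean liver level of ACTN4 was 4975 CPM in LE and 0.37 CPM in YA. That of ACTN1 was 265 CPM in YA and 0.689 CPM in HC3. MYH10 had 73.7 CPM in YA and 0.125 CPM in UN, and DES 890 CPM in QU and 0.277 CPM in YA. Lineage and assembly cannot be told apart in these values, since each lineage was counted on its own assembly. MYH11 and CNN1, by contrast, were not called and ranged from 10.9 CPM (UN) to 178 CPM (HC3) and from 2.48 CPM (YA) to 22.3 CPM (HC3) in mean liver level. Both were among the 9 members called when the odd-count livers were left out, a setting that called 84.8% of all 2252 genes tested.

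The actin rows with high levels had different names in different tables. The ACTA1 row, named for the actin of skeletal muscle, had 1461 to 1931 CPM in the HC1 livers and 1773 and 3612 CPM in the UN livers, but 7.64 to 13.5 CPM in the HC3 livers. The ACTB row, named for the cytoplasmic actin of all cells, had 0 to 0.515 CPM in the HC1 and UN livers and 4890 to 5414 CPM in the HC3 livers. In YA, which had rows for neither gene, the ACTG2 row had 1707 and 1796 CPM in the livers. The most abundant liver row of these genes was ACTA1 in HC1 and UN, ACTB in HC3 and LE, and ACTG2 in YA. Whether reads of cytoplasmic actin were counted on rows named for muscle actins was not tested. In HC3 the ACTB row was abundant beside rows named for muscle actins. The HC3 skin had 1525 CPM of ACTA1 and 3939 CPM of ACTC1, 151-fold and 461-fold above the livers, and ACTB was 1.91-fold higher. For HC1 and UN, ACTA1 was 2.51-fold and 2.36-fold the mean of the livers in the skin and 1.33-fold and 1.23-fold in the intestine. The UN intestine, at 3304 CPM, was below the UN liver at 3612 CPM. The medians over all rows were 1.64-fold and 2.32-fold in these skins and 1.65-fold and 1.38-fold in these intestines. ACTA1 was not called in skin (3.30, SE 1.28, edgeR's adjusted p = 0.175).

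**Figure D5:**
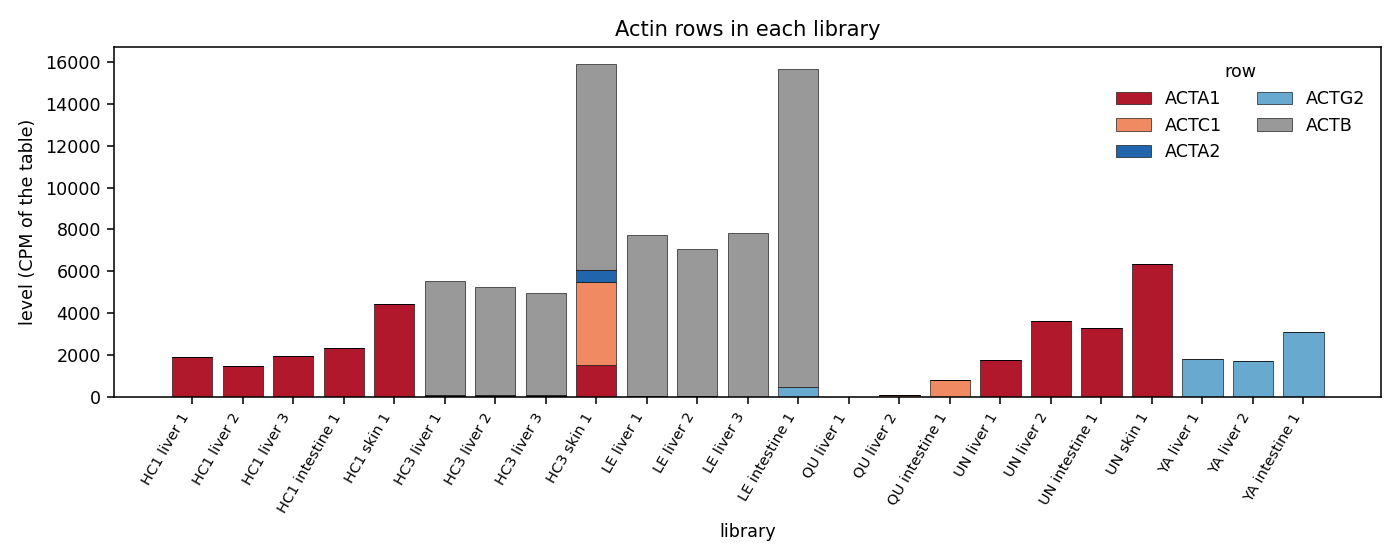
Level of the rows named ACTA1, ACTC1, ACTA2, ACTG2 and ACTB in every library, stacked, in CPM of the library's table; a table without a row for a gene shows nothing for it. Most actin counts fall on ACTA1 in HC1 and UN, on ACTB in HC3 and LE and on ACTG2 in YA, and the HC3 skin holds ACTA1, ACTC1 and ACTA2 beside ACTB.

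The rows left to name had low levels: LMOD2, LMOD3, MYBPC3, MYH4, MYH7, MYH13, MYH15, MYOM2, MYOZ2, MYOZ3, TNNI1, TNNI2 and TPM4 were at 31.6 CPM or less in every library. Of these, MYOZ2 had 14.5 CPM in the HC1 skin and MYH15 16.5 CPM in the HC3 skin.

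Genes that work with the contractile proteins were taken from lists. Of 40 striated muscle partners, 10 could be tested in skin against liver; 2 were higher and 0 lower. These were XIRP2, an actin-binding protein of striated muscle attachment sites (7.14, SE 1.32, edgeR's adjusted p = 0.0171), with 75.6, 34.1 and 32.2 CPM in the skins of HC1, HC3 and UN, and SRL, the calcium-binding sarcalumenin of the sarcoplasmic reticulum (6.83, SE 1.39, adjusted p = 0.0235), with 24.4, 133 and 43 CPM. The fast regulatory light chain MYLPF had 2027 CPM in the HC3 skin and 0.267 to 54.4 CPM in its livers, but 5.62 CPM in the HC1 skin. Muscle enolase ENO3 had 1533 CPM in the UN skin against 11 and 24.4 CPM. Muscle glycogen phosphorylase PYGM, in contrast, had 409 and 436 CPM in the HC1 and UN skins, against 389 to 558 and 618 to 769 CPM in their livers, and 1111 CPM in the HC3 skin against 195 to 462 CPM. CASQ1, the calcium store protein of the sarcoplasmic reticulum, had 2.59, 25.5 and 5.22 CPM in the skins of HC1, HC3 and UN, below the mean of the livers at 18.9, 266 and 220 CPM. The livers of 1 table were far apart, at 0.577, 1.96 and 54.2 CPM in HC1, 750, 44.8 and 3.32 CPM in HC3, and 0.604 and 438 CPM in UN, and CASQ1 was not called (-4.65, SE 2.42, adjusted p = 0.317). CASQ2, the heart form in mammals, had 1.96 CPM in the HC3 skin and 66.8, 0 and 0 CPM in the livers. Both were named after their values were seen. Creatine kinase CKM reached 842 CPM in the LE intestine with 154 to 766 CPM in the livers.

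Smooth muscle partners gave no call: 7 of 30 were tested in intestine and 6 in skin, and 0 passed in either. Caldesmon CALD1, which regulates actin and myosin in smooth muscle, had 680 CPM in the QU intestine against 194 to 247 CPM, but 221 CPM in the UN intestine against 120 to 324 CPM. The actin crosslinker FLNA had 1890 CPM in the UN skin and 62 to 88.8 CPM in the livers. In the HC1 and HC3 skins FLNA had 2.16 and 4.7 CPM. CSRP1 had 658 CPM in the LE intestine against 169 to 214 CPM, and the focal adhesion protein TLN1 247 CPM in the HC1 skin against 56 to 194 CPM. In UN, CSRP1 was 0.452-fold the mean of the livers in the intestine and 0.598-fold in the skin. TLN1 was 0.739-fold to 0.852-fold that mean in the intestines of HC1, UN and YA, and above it in the other intestines and skins. Of 17 muscle transcription factors 1 was tested in each comparison with liver and not called. TEAD1 had 219 CPM in the LE intestine against 2.08 to 7.95 CPM in the livers, and SRF 23.1 CPM in the HC3 skin against 0.374 to 1.76 CPM. In the intestines of HC1, UN and YA, TEAD1 was 4.92-fold, 1.07-fold and 1.01-fold the mean of the livers. In the HC1 and UN skins it was 9.47-fold and 3.97-fold. SRF was 9.39-fold in the LE intestine and 0.825-fold in the YA intestine, at 40.1 CPM. MKL2, a coactivator of SRF, had 52.3 CPM in the HC1 intestine and 30.5 CPM in the HC1 skin against 0.902 to 2.54 CPM in the livers, and 2.34 to 8.62 CPM in the intestines and skins of LE, UN and HC3, whose livers had 1.28 to 8.02 CPM. MKL1, its relative, had 10.3 and 21.2 CPM in the UN intestine and skin against 41.6 and 49.4 CPM. Of 18 further genes of actomyosin control in other cells, 8 were tested in intestine and 9 in skin, with 0 calls; the myosin-regulating kinase CDC42BPB had 538 CPM in the HC3 skin against 24.3 to 60.8 CPM. The actin-severing CFL1 had 3308 CPM in the QU intestine against 911 to 1293 CPM. It was 0.891-fold the mean of the livers in the LE intestine, and 1.46-fold and 1.28-fold in the UN intestine and skin.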

How the data were processed

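The files are 6 tables of read counts, which the authors deposited as whole numbers of reads per assembled sequence with a gene symbol, 1 column per library, per the file headers. The submitters' processing notes name BWA and SAMtools; versions, assemblies and the counting rule are not given in the sources used here. Embryos are named in the labels' extraction protocol, although the tissues are labelled as adult. Rows with no gene name (at most 0.169% of a library) were left out, and 0 columns were unmapped.

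Tables were joined by symbol for each comparison (2821 genes in the 5 tables with intestine, 4820 in the 3 with skin, 6984 in HC1 and UN, 2252 in all 6). Genes passed filterByExpr (minimum count 10), with TMM scaling, and were tested with edgeR 4.0.16 (glmQLFit, glmQLFTest, robust) with table and tissue as terms and Benjamini-Hochberg adjustment, called at an adjusted p under 0.05; of the members, TPM3 was not tested in skin. SE is the log2 fold change over the root of F. DESeq2 1.42.0 was an alternative. Within tables, a level is counts per 1000000, and a fold is over the mean of the livers, with a floor of 3 counts per library standing for a lower level; it covers counting error only. The tests were checked on simulated counts, drawn independently for each library. That check does not cover tissues paired by animal or the odd-count livers. Libraries of 1 group are separate animals by label. With 1 intestine or skin per table, the p-values do not measure a spread between animals for these tissues within a table. They rest on the spread of the livers, odd-count ones included, and of the tissue difference between tables. Outside the animal block, tissues of 1 animal were fitted as independent. The animal number in the labels pairs tissues; with 1 intestine or skin per table, the correlation of pairs within a group could not be checked.

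Genes named are the members called in a fit, the 4 highest of each class, those past 4-fold in each table of a tissue, those in 1 table with at least 100 CPM, and partners called or among the 4 highest of a list, of which 1 is not reported here. A few further members (such as MYH1, MYH4, MYH6, MYL3, NEB, ACTA2, TNNC1, TNNT3, CNN2, CNN3, MYL6, MYL12B, TPM3 and MYL10) were named after their values were seen. The members and lists were chosen with earlier results of these data known. Alternatives were another scaling, DESeq2, filters, library sizes, the animal block, the odd-count livers, a 6-table join, and each library left out.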

Additional observations from a re-analysis of the deposited data

Results flagged for a closer look

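For the 12 members that met the naming rule and had a row in 4 or 5 intestine tables, the intestines were checked for a library far from the rest, and 5 had one. By the same check 22.6% of all 5841 genes with a row in 4 or 5 of these tables had one, against about 1 in 20 by chance in normal values. CNN3, TPM3 and TPM4, named outside that rule, had rows in 4 of these tables and were not checked. TPM3 had 137 CPM in the LE intestine and 0 to 1.17 CPM in the others with a row. TTN had 317 CPM in the QU intestine, where the other intestines had 3.54 to 86.6 CPM. DES had 3136 CPM in the QU intestine, against 3.54 to 743 CPM. ACTN4 had 4077 CPM in the LE intestine against 1.18 to 8.12 CPM, and the LE livers, at 3496 to 5789 CPM, were high as well. MYH10 had 686 CPM in the YA intestine against 0.668 to 4.51 CPM, and the YA livers had 65.8 and 81.5 CPM. TPM2 had 363 CPM in the HC1 intestine against 1.34 to 11.2 CPM, and the HC1 livers had 184 to 237 CPM. For ACTN4, MYH10 and TPM2 the liver of the same table was thus the highest of the series too; the part of the assembly in this was not tested.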

How the results depend on the processing

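MYH11 and CNN1 kept their call in intestine in 26 of 28 alternatives, MYH14 in 17; the 2 that ended the call for MYH11 and CNN1 were the fits with the replicate block by animal. Genes called in intestine (138) became 349 with median-of-ratios scaling, 1024 with DESeq2, 540 with whole-table sizes, 341 without the odd-count livers and 0 with the replicate block, with all or only paired animals; leaving out a library gave 60 to 142. Members called (3) became 5 with DESeq2 and with whole-table sizes, 0 with the block and 2 to 3 with a library left out. In skin, genes called (250) became 1146 with DESeq2, 790 with whole-table sizes, 0 with the block, 105 with a library-type term, 92 in the 6-table join and 30 to 256 with a library left out. Members called (4) became 13, 12, 0, 2, 1 and 1 to 5 in the same order. The 6-table join held 9 members, CNN1 among them but not MYH8, TCAP or ACTN2, which could not be called there. Between intestine and skin DESeq2 called 59 genes and 2 members, and the 6-table join 1 gene. Members differing among livers (5) became 8 with DESeq2 and 9 without odd-count livers, with 84.8% of all genes called in each. With a library left out they became 3 to 6, and genes called there were 1158 to 1484. Members more than 4-fold lower within tables (5) became 2 against the same animal's liver, 8 at 2-fold and 1 at 8-fold. All rows lower (3566) became 3102, 7596 and 1990 in the same order. Members higher (126) ranged from 96 at 8-fold to 150 at 2-fold, and all rows higher (16142) from 10171 to 26058. Against the even-count livers alone 112 members were higher and 6 lower, with 15531 and 3914 of all rows. MYH9 turned to -0.04 without odd-count livers, -0.27 with a type term and, over libraries left out, ranged from -0.02 (QU intestine) to 0.83. In skin it turned to -0.41 with a type term and ranged from -0.15 (without the UN skin) to 1.14; MYL9 ranged from -0.28 (without the HC1 skin) to 1.81 and MYH2 from -0.88 (without the HC3 skin) to 7.41. The causes were not tested. A floor of 3 counts is 0.156 to 0.346 CPM in livers and 0.885 to 1.76 CPM in intestines, so low rows in intestines carry few counts.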
